A study of Mus musculus with 6 samples.

Results

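Genes of the epidermal growth factor (EGF) family were examined in RNA of macrophages sorted from the mammary glands of tumour-bearing mice at 2 ages. The 10 genes were taken by symbol from a list drawn up with earlier results of these data known: the ligand genes Hbegf, Areg, Ereg, Egf, Tgfa, Btc and Nrg1, and the receptor genes Egfr, Erbb2 and Erbb3, out of 43432 genes in the deposited table. All 6 libraries came from female FVB/N mice of the MMTV-PyMT genotype, in which a mammary tumour virus promoter, active in mammary epithelium, drives the polyomavirus middle T oncogene, so both ages carried the oncogene and no animal without it was compared. The groups were mice of 8 weeks (3 libraries) and of 11 weeks (3 libraries), the early and the late tumours of the series, and no treatment is named. Cells were sorted as live, CD45+, MHCII+ and CD14+. The labels number the animals of each age from 1 to 3, without stating that each library is 1 animal. The spread behind each p-value is therefore that between libraries of one age, and it may be technical.

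EGF family ligands are made as membrane-anchored precursors, and proteases such as ADAM17 cut them free to act on neighbouring cells. EGF, TGF-alpha, amphiregulin and the other EGFR ligands bind the receptor tyrosine kinase EGFR, while neuregulins bind ERBB3 and ERBB4. ERBB2 binds no known ligand and signals as a partner of the other receptors, and ERBB3, whose own kinase is weak, depends on such a partner. In mammary tumours of this mouse model, macrophages that supply EGF family ligands and tumour cells that supply CSF1 are known to act on each other, which is why the ligands of these sorted cells are of interest.

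Values are normalized counts, that is, reads per gene divided by 1 size factor per library. Depth ran from 38784434 to 75004880 recovered reads, and 3 reads were worth 2.56 to 4.16 normalized counts, below which a value cannot be told from 0. The label of the cells was checked against macrophage markers: all 13 core macrophage markers had reads, with a summed level of 780019 to 996122 at 8 weeks and 809759 to 913160 at 11 weeks. Most of this sum was Lyz2 (means of 487630 and 487917), so it says little of the others. At 11 weeks 3 of the 13 (Fcgr1, C1qb and Cd14) lay wholly above their 8-week values, beside 6.81% of genes tested. Wholly below were 2 (Csf1r and Ptprc), beside 5.12%. Transcripts of other cells were also present, and the sums of epithelial, neutrophil and conventional dendritic cell markers did not overlap between the ages. The 19 mammary epithelial markers summed to 9800 to 13243 at 8 weeks and 26994 to 52006 at 11 weeks, and the 9 neutrophil markers to 1714 to 4241 and 4408 to 6507. Most of the neutrophil sum at 8 weeks was Csf3r, whose ages overlapped (means of 2424 and 2490). Of the 7 neutrophil markers tested, 4 lay wholly above their 8-week values. Ly6g and Camp had at most 2 reads in any library. The 7 conventional dendritic cell markers summed to 5131 to 6571 at 8 weeks and to less, 3951 to 5013, at 11 weeks. Most of this sum was Cd209a (means of 4685 and 3548), and 4 of the 7 log2 fold changes were above 0 (median 0.14). How far the gates on CD45, MHCII and CD14 removed each of these cell types was not tested. The 9 fibroblast markers overlapped, at 1138 to 1883 and 1627 to 3601, with 8 of 9 log2 fold changes above 0 (median 1.52). Within 11 weeks the epithelial sum was 52006, 26994 and 47955 in replicates 1, 2 and 3, and 16 of the 19 markers were lowest in replicate 2. In that library 8 of the 19 still lay above their 8-week range, against 16 in replicate 1 and 17 in replicate 3. The 6 Schwann cell markers summed to 1052 to 1315 and 787 to 1588, and the mast cell and basophil markers to 57 to 351 and 122 to 362, with Mcpt8 at 0 throughout. Most of the Schwann cell sum was Mbp (means of 1090 and 739). It hides Sox10, at 60.6, 13.9 and 3.4 at 8 weeks and 720.9, 191.5 and 317.2 at 11 weeks. Of the 5 Schwann cell markers tested, 3 log2 fold changes were above 0 and 2 below.

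Per kilobase of exon, 3 genes stood above the rest: Egfr, Hbegf and Areg. Averaged over the 6 libraries, Egfr was at 323 normalized counts per kb (155 to 410), Hbegf at 259 (134 to 508) and Areg at 255 (112 to 324). Their ranges overlapped, and Egfr lay above Hbegf in 4 of 6 libraries and Hbegf above Areg in 3, so no order among the 3 could be read. Areg lay above Erbb3, the next gene, in all 6 libraries. Erbb3 averaged 34.2 per kb, Nrg1 24.5, Erbb2 13.8 and Tgfa 7.69. Egf, Ereg and Btc were lowest, at 2.32, 2.02 and 0.789 per kb, and each was at 0 in 3 libraries. With the longest transcript as the length instead, 6 of the 10 kept their rank, and Hbegf (433 per kb) came before Egfr (359). The length of Nrg1 is uncertain, because its span in the deposited table (chromosome 8, 31818028 to 31918203) is narrower than in the GENCODE M21 annotation (31814551 to 32884029). All 10 are protein-coding genes with 1 total per gene. In the deposited GRCm38 spans, Egfr covers 16752203 to 16918158 and Erbb2 98412470 to 98437716 of chromosome 11, Erbb3 128567523 to 128589652 of chromosome 10, Hbegf 36504929 to 36515805 of chromosome 18 and Areg 91139615 to 91148432 of chromosome 5.

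**Figure D1:**
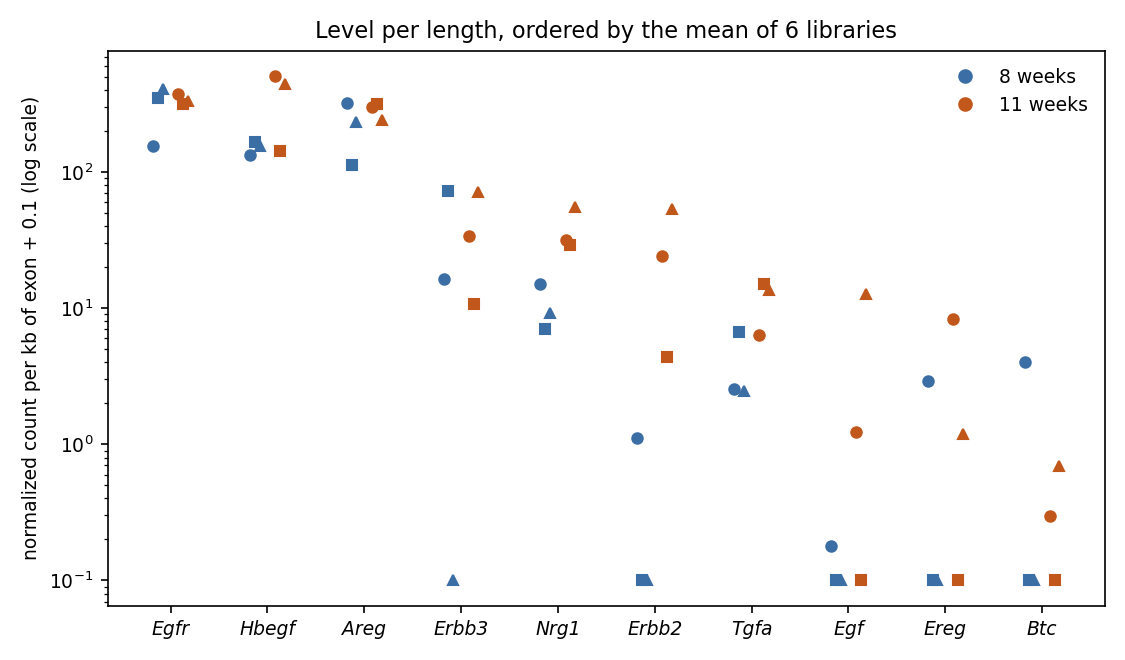
Normalized count per kb of exon plus 0.1, on a log axis, for the 10 EGF family genes in the 3 libraries at 8 weeks and the 3 at 11 weeks (circle, square and triangle for replicates 1, 2 and 3). Egfr, Hbegf and Areg overlap at the top, and points at 0.1 are libraries with no read.

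Areg, Ereg, Btc and the related ligand gene Epgn lie within 376 kb on chromosome 5 of GRCm38, yet Areg was the one of these neighbours with an appreciable level. The 250 bases before its RefSeq start site (chr5:91139349-91139598, plus strand, GRCm38.p6) are shown because Areg and Hbegf were the 2 ligand genes with the highest levels per kb, beside those of Erbb2 (chr11:98412234-98412483, plus strand), the receptor gene that was near 0 at 8 weeks. RefSeq promoter entries were found for 6 of the 10 genes. Capitals mark matches, on either strand, to the cAMP response element TGACGTCA, the AP-1 motif TGANTCA and the GC box GGGCGG.

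Areg: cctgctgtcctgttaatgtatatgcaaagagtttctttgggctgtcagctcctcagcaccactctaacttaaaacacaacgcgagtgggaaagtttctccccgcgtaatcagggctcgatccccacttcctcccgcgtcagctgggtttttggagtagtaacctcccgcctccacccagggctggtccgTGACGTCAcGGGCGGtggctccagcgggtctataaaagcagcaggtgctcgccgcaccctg
Erbb2: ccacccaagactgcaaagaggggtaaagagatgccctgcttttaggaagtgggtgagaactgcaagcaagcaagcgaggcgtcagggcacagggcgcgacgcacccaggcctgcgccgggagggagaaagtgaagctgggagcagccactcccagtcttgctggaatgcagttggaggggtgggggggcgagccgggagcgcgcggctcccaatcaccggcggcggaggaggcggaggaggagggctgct

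The Areg window held 1 cAMP response element, which begins at base -61 from the start site, with a GC box from base -52. TGACGTCA occurred in 1.55% of 32851 promoter windows of this length, and in none of the other 5 members with an entry. GGGCGG occurred in 32.7% of the windows, and the Erbb2 window held none of the 3 motifs. TGANTCA, found in 6.75% of the windows, was in none of the members' windows. These matches describe letters and are not evidence of binding.

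The main question was whether these genes differed between early and late tumours. None of the 10 passed an adjusted p of 0.05 in the limma fit over 21675 genes, where 0.0507% of all genes passed, 0.0369% as higher and 0.0138% as lower at 11 weeks. An unadjusted p under 0.05 was reached by 3 of the 10 (Erbb2, Nrg1 and Hbegf), against 8.03% of all genes. The edgeR quasi-likelihood test on recovered reads passed 0 of the 10, with 0.0646% of all genes passing. DESeq2 on the same reads passed Erbb2 and Nrg1, both as higher, and 1.95% of all genes, 1.23% as higher. All 10 reached the minimum level for testing, Egf through its 11-week libraries alone. The log2 fold change was above 0 in 9 of the 10, with a median of 1.47, beside 52.8% of genes above 0 and a median of 0.05 over all genes tested. This median describes a few genes, several with few reads, and is not a test.

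**Figure D2:**
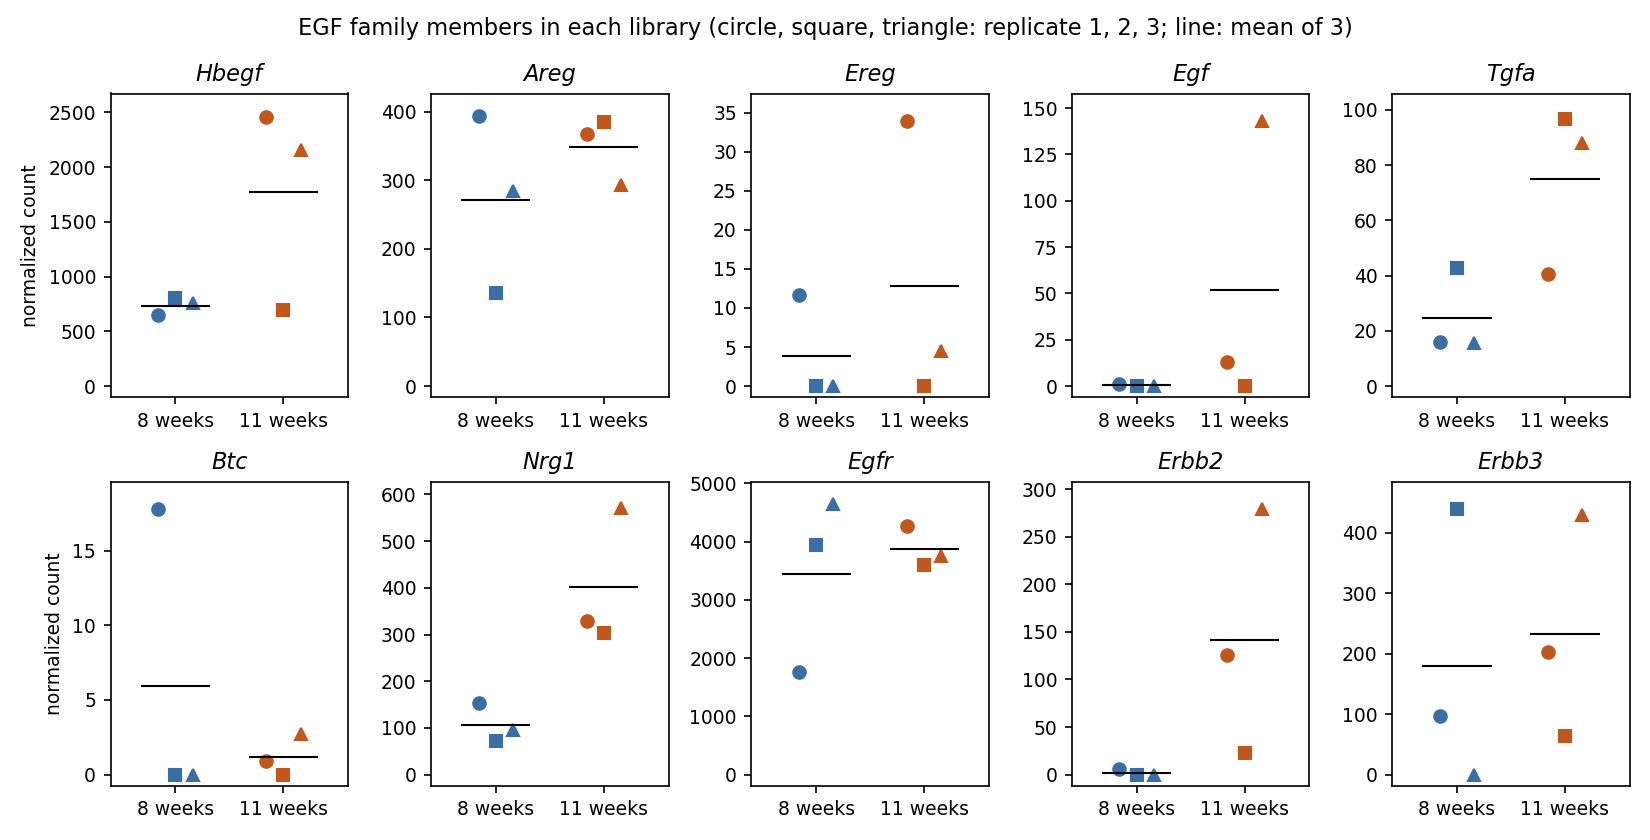
Normalized count (vertical axis, from 0, a separate scale for each gene) of the 10 genes in each library at 8 and 11 weeks, with the mean of 3 as a line. Nrg1 and Erbb2 are the 2 genes whose ages do not overlap, both higher at 11 weeks. Of all genes tested, 6.81% lay wholly above and 5.12% wholly below. Hbegf in 11-week replicate 2 (690.5) sits among the 8-week values.

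Nrg1 encodes neuregulin 1, a ligand of ERBB3 and ERBB4. Its normalized count was 154.3, 72 and 94.8 in 8-week replicates 1, 2 and 3 and 328.3, 302.4 and 571.9 in 11-week replicates 1, 2 and 3. Every 11-week value lay above every 8-week value, which held for 6.81% of the genes tested. The mean normalized counts were 107 ± 42.5 and 401 ± 149 (SD, n = 3 per age), and the log2 difference was 1.91 ± 0.58 (SE; 95% interval 0.68 to 3.14; limma unadjusted p = 0.00471, adjusted p = 0.344). The adjusted p was 0.365 by edgeR and 0.0102 by DESeq2 on the recovered reads. In the authors' deposited table Nrg1 has a log2 fold change of 1.406 and an adjusted p of 0.012, under 0.05 as were 1.91% of the genes given an adjusted p there (1.13% as higher). Leaving out any 1 library gave log2 fold changes of 1.62 to 2.20, with adjusted p of 0.392 to 0.691 by limma. Nrg1 and the epithelial sum were both lowest at 11 weeks in replicate 2 and both above their 8-week range there. The fibroblast, Schwann cell and endothelial sums were also lowest at 11 weeks in that replicate (1627, 787 and 304). These sums ran in the order of Nrg1 (replicate 3, then 1, then 2), and the epithelial sum in the order 1, 3, 2. The part of other cells in the Nrg1 difference was not tested.

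Hbegf encodes heparin-binding EGF-like growth factor, a ligand of EGFR and ERBB4 that macrophages are known to make. Its normalized count was 645.5, 806.3 and 754.2 in 8-week replicates 1, 2 and 3 and 2454.1, 690.5 and 2159.8 in 11-week replicates 1, 2 and 3. At 11 weeks, replicates 1 and 3 were high and replicate 2 lay within the 8-week range, so the ages overlapped. The mean normalized counts were 735 ± 82.0 and 1768 ± 945 (SD, n = 3 per age), and the log2 difference was 1.07 ± 0.41 (SE; limma unadjusted p = 0.0200, adjusted p = 0.509). With 11-week replicate 1, 2 or 3 left out, the log2 difference became 0.74, 1.65 or 0.83, at a limma adjusted p of 0.756, 0.145 or 0.792 in turn. In the authors' deposited table the log2 fold change is 0.982 (adjusted p 0.125). Its spread within an age, an SD of 0.72 on the log2 scale, was larger than that of 93.7% of 3628 genes of like level.

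Some epithelial transcripts had the same pattern as Hbegf over the libraries and others did not. Among 10726 genes averaging 100 or more normalized counts, the profiles nearest to Hbegf by root mean square difference over the 6 libraries were those of Gm684, the casein gene Csn1s1 and Cystm1 (0.147, 0.163 and 0.192 in log2 units, beside a median of 0.92). Csn1s1, which encodes a milk protein of mammary epithelium, had a normalized count of 782, 1119.4 and 1035.2 at 8 weeks and 3976.8, 1140.1 and 3468.6 at 11 weeks. Epcam, an epithelial surface marker, had a normalized count of 656.5, 276.2 and 1370.4 in 11-week replicates 1, 2 and 3. Replicate 2 was again lowest and, as for Hbegf, lay within the 8-week range (191.2 to 321.9). The milk protein gene Csn3, by contrast, was at 19883.5 in 11-week replicate 2, above its 8-week values of 5232.1 to 8277.1. The epithelial sum there was also above its 8-week range while Hbegf was not, but most of that sum is Csn3 itself. Of the 19 markers, 8 lay above their 8-week range in that library. With only 6 libraries this likeness is a description, and the part of epithelial RNA in the Hbegf difference was not tested. In these bulk samples, more cells of a type and more RNA per cell cannot be told apart.

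**Figure D3:**
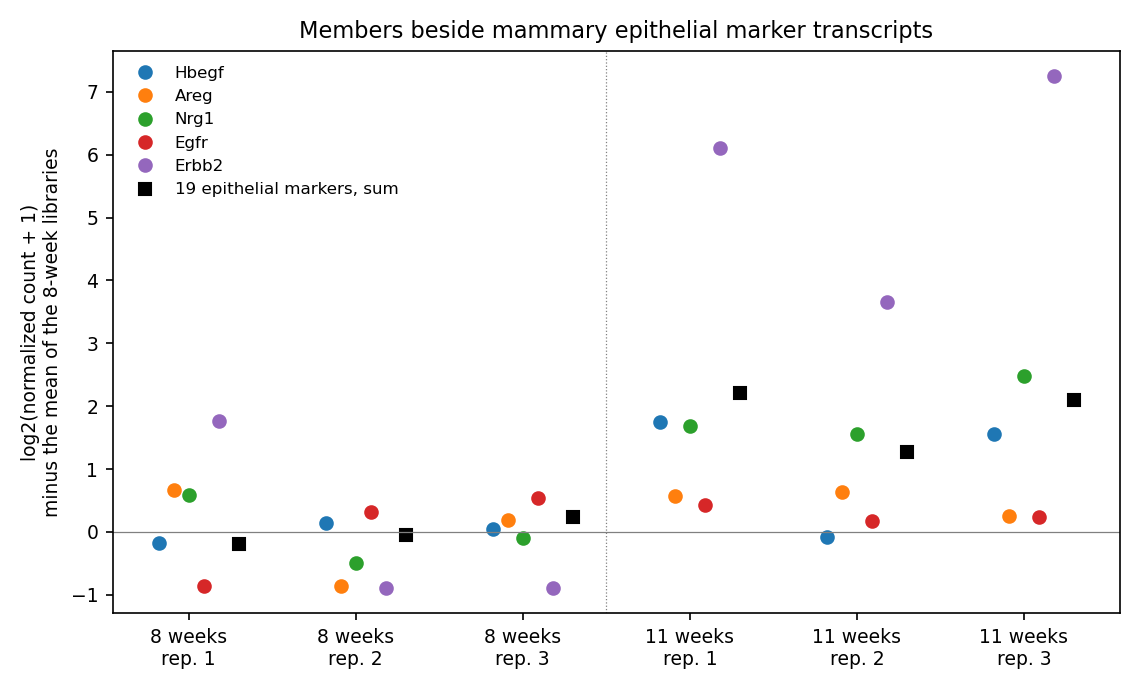
Log2(normalized count + 1) of 5 members and of the sum of 19 mammary epithelial markers in each library, less the mean of the 8-week libraries. In 11-week replicate 2 the epithelial sum, Erbb2, Hbegf and Nrg1 are each the lowest of that age, and of these 4 only Hbegf lies within its 8-week range.

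Areg encodes amphiregulin, an EGFR ligand central to mammary duct growth. Its normalized count was 393.2, 135.8 and 283.6 at 8 weeks and 366.9, 385.1 and 293.7 at 11 weeks. The ages overlapped, with 8-week replicate 1 the highest and 8-week replicate 2 the lowest of all 6. The log2 fold change was 0.48, with a 95% interval of -0.62 to 1.58 (limma adjusted p = 0.829), so a doubling was neither shown nor outside the interval. The profile nearest to Areg was that of Tubgcp2, a gene of the gamma-tubulin complex, at 0.082 log2 units, followed by Tubb4a and Tnfaip1 at 0.109 and 0.168.

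Tgfa encodes TGF-alpha, a close relative of EGF. It was low, with a normalized count of 16, 42.9 and 15.4 at 8 weeks and 40.5, 96.8 and 87.9 at 11 weeks. The ages overlapped by one library, 8-week replicate 2, and the log2 fold change was 1.63 (95% interval -0.53 to 3.78; limma adjusted p = 0.740). Unlike Hbegf, Tgfa was highest in 11-week replicate 2.

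Egf, the founding ligand of the family, had 1 read or none in 4 of the 6 libraries. It had 1 read over the 8-week libraries together, and 14, 0 and 158 reads in 11-week replicates 1, 2 and 3. The ratio of 11 to 8 weeks was 163, with a counting interval of 28.8 to 6471 that leaves out the spread between libraries (limma adjusted p = 0.645). Nearly all of it came from replicate 3. Ereg (epiregulin, an EGFR and ERBB4 ligand) had 13, 0 and 0 reads at 8 weeks and 37, 0 and 5 at 11 weeks. Btc (betacellulin, which binds the same receptors) had 20, 0 and 0 reads and 1, 0 and 3 reads. For both, 8-week replicate 1 held every 8-week read, and the limma adjusted p was 0.835 for Ereg and 0.934 for Btc. A library at 0 was common at the level of Ereg, where 80.3% of 3171 genes had one.

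Egfr, the receptor of most of these ligands, was well detected. Its normalized count was 1761, 3948.3 and 4642 in 8-week replicates 1, 2 and 3 and 4265.5, 3606.9 and 3745.9 at 11 weeks. One library, 8-week replicate 1, stood apart at less than the others, and the ages overlapped. The mean normalized counts were 3450 ± 1504 and 3873 ± 347 (SD, n = 3 per age), and the log2 difference was 0.28 with a 95% interval of -0.37 to 0.92 (limma adjusted p = 0.829). Without that library it was -0.15 (limma adjusted p = 0.879). The profile nearest to Egfr was that of the mitochondrial ribosomal RNA mt-Rnr1 (0.135 log2 units), which ran from 5545296.7 in 8-week replicate 1 to 13846357.9 in 8-week replicate 3. Mitochondrial ribosomal RNA took 35.2% of the normalized counts in the former library and 51.8% in the latter, and its part in the Egfr values was not tested. An antisense gene, Egfros, overlaps Egfr and averaged 247 at 8 weeks and 206 at 11 weeks, and reads of the pair cannot be told apart unless strand was used in counting, which is not stated.

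Erbb2 encodes the HER2 receptor, present on normal and tumour mammary epithelium. It had 6, 0 and 0 reads in 8-week replicates 1, 2 and 3 and 137, 22 and 308 reads in 11-week replicates 1, 2 and 3. In normalized counts these were 5.3, 0 and 0 against 126, 22.2 and 279.2. Every 11-week value lay above every 8-week value, as in 6.81% of genes tested. The mean normalized counts were 1.77 ± 3.06 and 142 ± 129 (SD, n = 3 per age). The log2 fold change was 5.67 ± 1.46 (SE; 95% interval 2.58 to 8.76; limma unadjusted p = 0.00133, adjusted p = 0.243), a size that depends on the added 1, being 3.23 with an added 10. DESeq2 on recovered reads gave an adjusted p of 0.00115 and edgeR one of 0.263. The authors' deposited table has a log2 fold change of 1.163 and an adjusted p of 0.082. Its linear fold ratio, 2.239, is far below the ratio of mean normalized counts, 80.6, so that fold change is an unlike measure. The order of the 11-week libraries in Erbb2 (replicate 3, then 1, then 2) was that of 9 of the 19 epithelial markers, while 7 others and the sum ran in the order 1, 3, 2. The fibroblast, Schwann cell and endothelial sums ran in the order of Erbb2. The part of epithelial RNA, or of other cells, in the Erbb2 values was not tested. Mien1 overlaps the Erbb2 span on the other strand and averaged 711 and 845 normalized counts at the 2 ages.

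Erbb3, the neuregulin receptor that partners ERBB2, was the most uneven of the 10. Its normalized count was 97.2, 439.2 and 0 at 8 weeks and 203.2, 64.5 and 429.6 at 11 weeks. The 0 was in 8-week replicate 3, the most deeply sequenced library, and only 1.07% of 3555 genes of like level had any library at 0. Its spread within an age exceeded that of 99.7% of those genes. The log2 fold change was 2.35 with a 95% interval of -1.31 to 6.02 (limma adjusted p = 0.788). This value rests on the library at 0: without 8-week replicate 3 it was -0.21, and on recovered reads edgeR gave 0.36 and DESeq2 0.38 (adjusted p = 0.958 and 0.973).

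**Figure D4:**
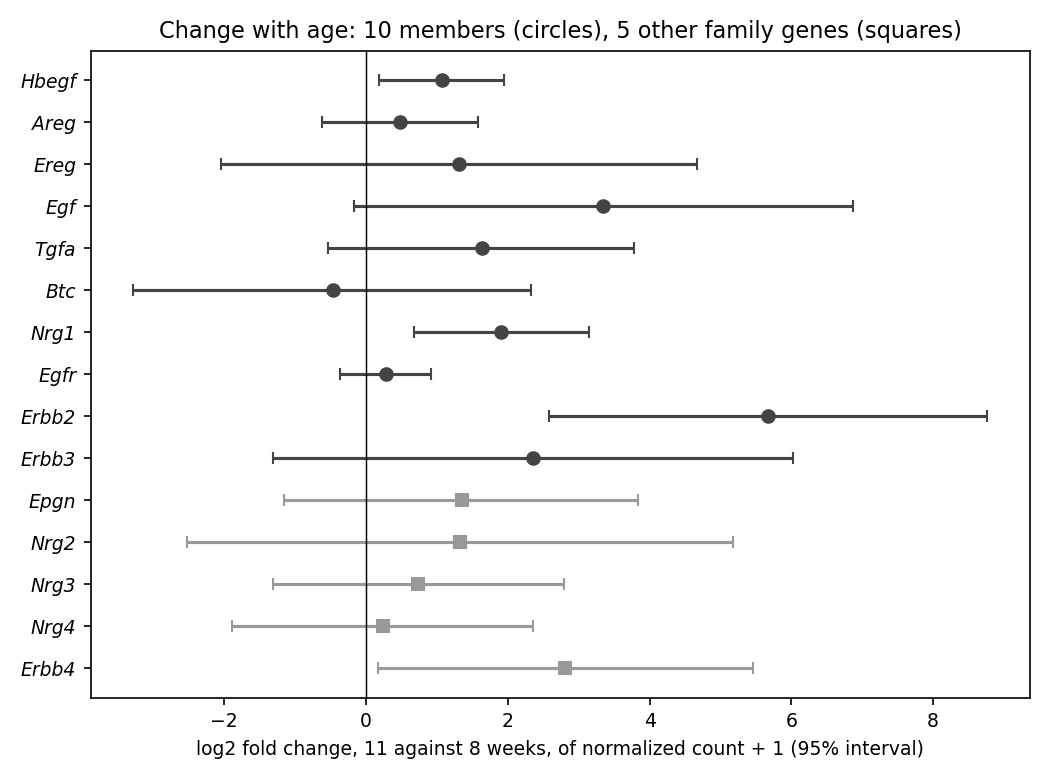
Log2 fold change of normalized count plus 1 at 11 against 8 weeks, with 95% intervals from the limma fit, for the 10 members (circles) and 5 other family genes (squares). The intervals of Hbegf, Nrg1, Erbb2 and Erbb4 lie above 0, and none of the 15 genes passes after adjustment.

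Of the 5 other family genes, Erbb4, the remaining receptor of neuregulins, had a normalized count of 18.7, 1.4 and 10.2 at 8 weeks and 73.6, 54.4 and 43.5 at 11 weeks (limma adjusted p = 0.601). All 11-week values were higher, as in 6.81% of genes tested. The value in 8-week replicate 2 was 1 read, which cannot be told from 0. Nrg4, a neuregulin ligand of ERBB4, ranged from 23.2 to 562.5 at 8 weeks and from 60.7 to 247 at 11 weeks (limma adjusted p = 0.958). Nrg2 did not exceed 41.9 normalized counts in any library, Epgn 15.4 or Nrg3 3.7. Of the partner genes of the CSF1 loop, Csf1r, the CSF1 receptor that macrophages need, was at 68658 ± 3684 and 57054 ± 2478 normalized counts (SD, n = 3 per age; limma adjusted p = 0.609), with every 11-week value below every 8-week value, as in 5.12% of genes. Csf1 was at 160 ± 200 and 375 ± 211 normalized counts (SD, n = 3 per age; limma adjusted p = 0.607), with overlap.

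None of the 15 shedding and processing genes passed the test (median log2 fold change 0.16). Adam17, the main protease that frees EGFR ligands, was at 9937 ± 2237 and 9027 ± 1985 normalized counts, and its partner Rhbdf2 (iRhom2) at 2143 ± 839 and 2175 ± 603 (SD, n = 3 per age; limma adjusted p = 0.875 and 0.970), both named for their role and outside the rule for named genes. The smallest p-values belonged to Adam19, Timp3, Adam8 and Rhbdl2. Adam19, a metalloprotease known to process neuregulin, was at 9424 ± 1098 and 6040 ± 1220 normalized counts (SD, n = 3 per age), with all 11-week values lower (limma adjusted p = 0.364). Timp3, an inhibitor of ADAM17, had a normalized count of 66.9, 0 and 202.4 at 8 weeks and 347.6, 264.1 and 304.5 at 11 weeks (limma adjusted p = 0.499). Adam8 was at 4916 ± 780 and 7678 ± 2215 normalized counts (SD, n = 3 per age) with overlap, and Rhbdl2, a rhomboid protease, did not exceed 35.9 normalized counts (limma adjusted p = 0.510 and 0.667).

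Of 28 genes of receptor-proximal signalling none passed, and their median log2 fold change was -0.06. Among those with the smallest p-values were the ERK kinase Mapk3, Plcg1, a phospholipase recruited to EGFR, and Sos2, a Ras activator (log2 fold changes -0.33, 0.64 and 0.28, limma adjusted p = 0.758 to 0.802).

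The 24 negative regulators of EGFR and Ras-ERK signalling had no member past the threshold in limma, and their median log2 fold change was 0.21. In 8 of the 24 all 11-week values lay above all 8-week values, beside 6.81% of all genes. The 8 include Spry4, which had no 8-week read and reached the minimum level for testing through its 11-week libraries alone. Its 2 reads in 11-week replicate 2 cannot be told from 0. Errfi1, which encodes the EGFR kinase inhibitor MIG6, was the most abundant of the 4 with the smallest p, with a normalized count of 10038.9, 10829.5 and 6800.3 at 8 weeks and 20727, 12682.7 and 15434.2 at 11 weeks (log2 fold change 0.82 ± 0.22, SE; limma adjusted p = 0.277). Spred2, an inhibitor of Raf activation, was at 794 ± 98.0 and 1524 ± 382 normalized counts (SD, n = 3 per age; limma adjusted p = 0.423). Spry2, of the Sprouty inhibitors induced by receptor tyrosine kinases, had a normalized count of 4.5, 1.4 and 2.6 at 8 weeks and 219.8, 12.1 and 97.9 at 11 weeks (limma adjusted p = 0.420). At 8 weeks Spry2 had only 5, 1 and 3 reads, near or below the floor of 3 reads. Its relative Spry4 was at 0 in all 8-week libraries and at 42.3, 2 and 39.9 normalized counts at 11 weeks (limma adjusted p = 0.449). Both Sprouty genes were lowest at 11 weeks in replicate 2, as were the epithelial, fibroblast, Schwann cell and endothelial sums. The part of these other cells was not tested. DESeq2 on recovered reads and the authors' deposited table both call Spry2 and Spred2 (adjusted p 0.031 and 0.043 in the deposited table). Over all genes, DESeq2 passed 1.95%, and 1.91% of those given an adjusted p passed in the deposited table.

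Of 14 early genes induced by ERK none passed in limma (median log2 fold change 0.26). Ier3, an immediate-early survival gene, was at 12209 ± 860 and 20315 ± 6710 normalized counts (SD, n = 3 per age), with no overlap (limma adjusted p = 0.372). The AP-1 subunit gene Fosl1 had a normalized count of 54.4, 133 and 12 at 8 weeks and 398.1, 125 and 443.2 at 11 weeks, with replicate 2 again within the 8-week range (limma adjusted p = 0.426). Phlda1 was at 2038 ± 514 and 3167 ± 894 and Egr2 at 6902 ± 1456 and 9452 ± 2301 normalized counts (SD, n = 3 per age; limma adjusted p = 0.600 and 0.658).

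**Figure D5:**
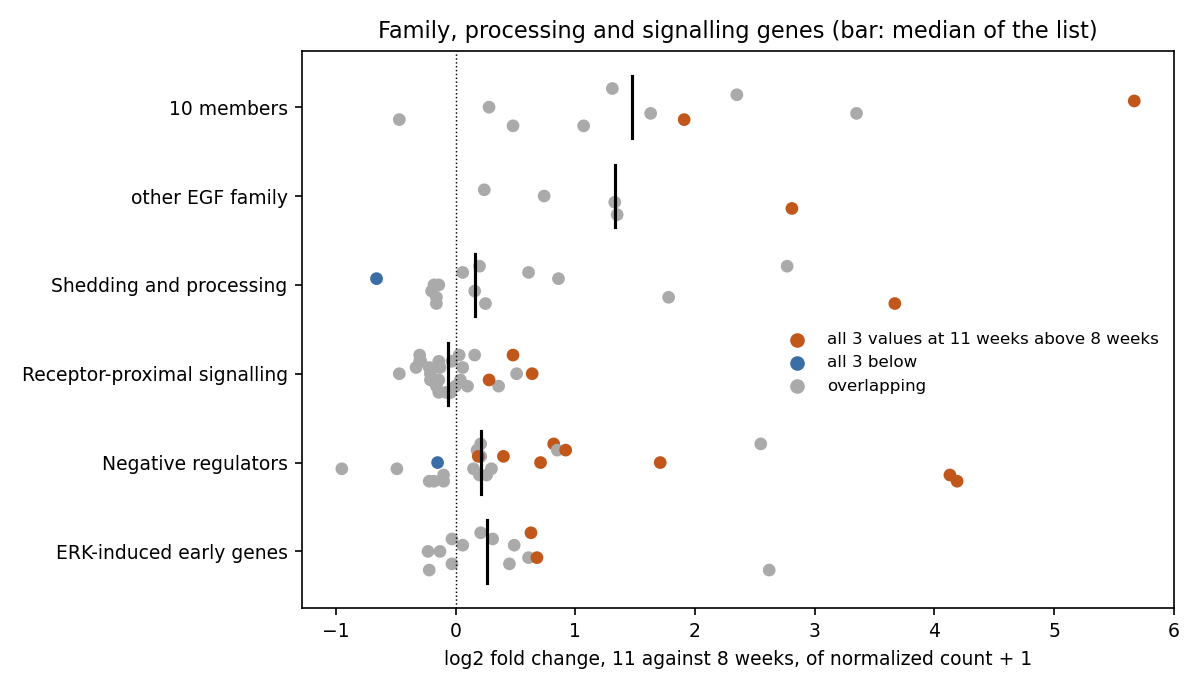
Log2 fold change of normalized count plus 1 at 11 against 8 weeks for the 10 members, 5 other family genes and 4 pathway lists, 1 point per gene, with the list median as a bar. Coloured points are genes whose ages do not overlap, 8 of them higher among the 24 negative regulators, beside 6.81% of all genes tested. None of the genes shown passes after adjustment in limma. The 8 include Spry4, which has no 8-week read.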

How the data were processed

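RNA of sorted mammary macrophages was sequenced in 6 libraries, prepared from under 100 ng of RNA by amplification and transposase tagging, per the labels' protocols. STAR 2.4, DESeq2 1.6 and GRCm38 appear in the submitters' processing notes, without roles. Not given in the sources used here is how genes were counted, nor the use of strand. The deposited signal values are counts per gene scaled by a size factor for each library and written to 1 decimal. The authors' log2 fold change, linear fold ratio, p-value and adjusted p-value stand in the same deposited table. How that fold change was estimated is not stated, so its size cannot be compared directly with the limma values. Columns were matched to samples by age and number.

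Whole reads were recovered within 0.05 normalized counts for at least 99.793% of nonzero values in each library. No 2 libraries of an age agreed within counting noise (chi-square per degree of freedom 116.3 to 331.5). The edgeR test planned for whole counts was replaced, as planned, by limma with trend and robust variance on log2(normalized count + 1), with age as the only term, over genes with a mean of at least 1 in either age, adjusted by Benjamini and Hochberg over all of them. A fold change is a difference on this log2 scale, which understates low genes. Members and lists were chosen with earlier results of these data known. The genes named are all members, 5 other family genes, Csf1 and Csf1r, the 4 genes of each pathway list with the smallest p, and the 3 nearest profiles of the 3 members with the highest mean. One gene that this rule names is not reported here. Exon lengths are from GENCODE M21 (GRCm38), and promoter windows from RefSeq. Alternatives changed the test, scaling, pseudocount, filter, block and libraries. Intervals on reads cover counting error only. Python 3.11.15 was used with numpy 2.4.6, pandas 2.3.3 and matplotlib 3.10.9, and R 4.3.3 with DESeq2 1.42.0, edgeR 4.0.16 and limma 3.58.1.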

Additional observations from a re-analysis of the deposited data

How the results depend on the processing

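The count of members past an adjusted p of 0.05 was 0 under the main limma fit and every alternative run except DESeq2 on recovered reads, which gave 2 (Nrg1 and Erbb2). The count over the pathway lists was likewise 0, and 2 by DESeq2 (Spry2 and Spred2), which passed 1.95% of all genes. The count over all genes was 11 in the main fit, 14 by edgeR, 422 by DESeq2, 26 by limma-voom, 4 with scaling to library totals and 5 with an added 10, and it was 3 to 16 when 1 library was left out (3 without 8-week replicate 1 and 4 without 11-week replicate 1). Which genes were tested moved these counts, as 2 alternatives chosen after seeing the data showed. With edgeR's own expression filter, which left Egf, Ereg and Btc untested, edgeR called 3 genes in place of 14. With the genes chosen on all 6 libraries, leaving out 1 library gave 0 to 8. The count of 8 came when 11-week replicate 2 was omitted, and omitting any other library gave 0 or 1. With the replicate number as a block it was 45, with 0 members. Same-numbered libraries of the 2 ages did not deviate together (correlations -0.023, -0.009 and -0.014), so the block is not taken as a pairing. The direction reversed for Btc (0.94) and Egfr (-0.15) without 8-week replicate 1 and for Erbb3 (-0.21) without 8-week replicate 3, in log2 units, and leaving out 1 library at a time gave -1.18 to 0.94 for Btc, -0.15 to 0.55 for Egfr and -0.21 to 4.18 for Erbb3. The other 7 members kept their direction in all alternatives, with ranges of 1.62 to 2.20 for Nrg1, 0.74 to 1.65 for Hbegf, 3.23 to 6.67 for Erbb2, 0.05 to 0.82 for Areg, 1.31 to 2.09 for Tgfa, 0.01 to 2.58 for Ereg and 1.59 to 7.16 for Egf. The causes were not tested. A minimum mean of 10 left Btc untested. Few reads limit what can be said of Egf, Ereg and Btc, each with no read in 3 libraries. Among these libraries was 8-week replicate 3, the most deeply sequenced, and the part of depth was not tested.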
